A study of Mus musculus with 159 samples.

Results

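The 5 fibrillar collagen chains Col1a1, Col1a2, Col3a1, Col5a1 and Col5a2 were followed across 4 kinds of tissue segment in fibrotic mouse liver. They were taken by name and are 5 of the 607 genes in the deposited table. The study asked how macrophages bearing MARCO, a scavenger receptor, relate to scar-forming cells in their neighbourhood. RNA was read by digital spatial profiling, in which barcodes cleaved by light from a stained area are sequenced. The formalin-fixed sections came from 4 livers of wild-type C57BL/6 mice that, per the study's methods, had all received carbon tetrachloride (CCl4) for 6 weeks, a toxin given to cause liver fibrosis. The methods add that MARCO-bearing bone marrow-derived macrophages had been transferred into some of these adult mice and saline into the others, and the sample labels do not tie a liver to either. The labels call livers 1 and 3 treated CCl4 and livers 2 and 4 control, and those names are used here as labels only. No liver without CCl4 was analysed here.

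Regions of interest (ROIs) had been picked by hand as rich or poor in MARCO staining, the MARCO Hi and MARCO Lo classes. Each ROI was divided by staining masks into segments positive for desmin (the Des+ mask, called HSC for hepatic stellate cell), positive for both MARCO and the macrophage marker IBA1 (MARCO+), positive for IBA1 without MARCO (MARCO-) and the remaining tissue (Other). The table held 159 segments: 41 HSC, 45 MARCO+, 24 MARCO- and 49 Other. Of these, 25 HSC, 26 MARCO+, 11 MARCO- and 28 Other segments lay in MARCO Hi ROIs. Liver 2 had no MARCO- segment in a MARCO Hi ROI. A segment holds pieces of several cells, so fewer cells of a type and less RNA per cell cannot be told apart. The 4 livers were the replicates, and segments of a liver were averaged first.

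Fibrillar collagens are triple helices that assemble into the fibres of scar. Type I collagen is built mostly from pro-alpha chains of Col1a1 and Col1a2, type III from Col3a1 alone, and type V, which lies inside mixed fibrils and governs how they begin and how thick they grow, chiefly from Col5a1 and Col5a2. In the injured liver stellate cells, which store vitamin A when quiescent, become myofibroblasts and are the main source of these chains, with portal fibroblasts as another source.

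The genes lie on 4 chromosomes of the mouse assembly GRCm38.p6, the RefSeq release of the mm10 build that the submitters name. Col3a1 (chr1:45311538-45349706) and Col5a2 (chr1:45374331-45503282) are neighbours with 24624 bases and no annotated gene between them. Col5a1 lies at chr2:27886381-28039510, Col1a2 at chr6:4505618-4541543 and Col1a1 at chr11:94936224-94953042. The positions probed within each transcript are not given in the sources used here. The 250 bases before the transcript start used by the RefSeq promoter table are printed for the 3 chains with an entry in it, since Col1a2 and Col3a1 fell in HSC segments of MARCO Hi ROIs below and Col5a1 did not pass the test there. All 3 are on the plus strand and run 5′ to 3′, at chr6:4505368-4505617 (Col1a2), chr1:45311288-45311537 (Col3a1) and chr2:27886175-27886424 (Col5a1). The first 2 end at the base before the gene entry, and the last 44 bases of the Col5a1 window lie inside it. Capitals mark matches, on either strand, to the 3 motifs searched, the CCAAT box, the GC box (GGGCGG) and the TATA box (TATAAA).
Col1a2: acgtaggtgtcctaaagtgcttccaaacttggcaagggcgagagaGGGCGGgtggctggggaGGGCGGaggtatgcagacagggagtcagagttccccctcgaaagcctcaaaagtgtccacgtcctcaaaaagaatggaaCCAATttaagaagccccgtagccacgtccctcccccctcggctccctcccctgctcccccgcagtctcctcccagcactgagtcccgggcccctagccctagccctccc
Col3a1: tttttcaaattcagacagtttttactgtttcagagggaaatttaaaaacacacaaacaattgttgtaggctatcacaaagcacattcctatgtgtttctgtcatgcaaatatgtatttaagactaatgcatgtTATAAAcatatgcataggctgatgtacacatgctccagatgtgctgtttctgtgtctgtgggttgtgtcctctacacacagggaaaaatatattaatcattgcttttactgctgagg
Col5a1: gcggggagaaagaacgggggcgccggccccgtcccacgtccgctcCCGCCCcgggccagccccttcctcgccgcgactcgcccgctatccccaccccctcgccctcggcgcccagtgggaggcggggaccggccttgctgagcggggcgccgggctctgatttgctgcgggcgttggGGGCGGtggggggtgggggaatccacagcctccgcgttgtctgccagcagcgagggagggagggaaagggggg
The Col1a2 window held 2 GGGCGG matches and 1 CCAAT, the Col3a1 window held 1 TATAAA and the Col5a1 window 2 GGGCGG, 1 of them on the minus strand. No capitals overlapped. Among 32851 mouse promoters cut to the same length, 33.8% held CCAAT, 32.7% GGGCGG and 12.4% TATAAA, so none of these matches is rare. The windows differed in base composition, with 62% G or C for Col1a2, 76.4% for Col5a1 and 35.2% for Col3a1. A match describes letters and not a bound factor.

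Depth differed strongly between the masks and sets what can be read from the chains. The deposited values are scaled so that the 75th percentile of every segment, over the 607 genes of the table, is 26.074 (Q3 values). They divide into whole counts. Each value is thus relative to the table's genes in its own segment, which the authors picked as found mainly in stellate cells. What part this scaling has in the differences between masks was not tested. Total recovered counts had a median of 3675 in HSC segments (1448 to 16715), 8408 in MARCO+ (3106 to 27341), 1639.5 in MARCO- (1065 to 4457) and 209469 in Other (75571 to 448875). No value was 0 and the lowest was 1 count, worth a median Q3 value of 3.725 in HSC, 1.682 in MARCO+, 8.691 in MARCO- and 0.069 in Other segments. Low levels in HSC and MARCO- segments therefore rest on a floor. Col5a2 stood at that single count in 14 of 41 HSC and 17 of 24 MARCO- segments, whereas Col3a1 did so in 0 of 41 and 4 of 24. In Other segments, where the lowest gene of a segment had a median of 52 counts, no chain came near 1 count. That lowest gene had a median Q3 value of 3.19. Medians of Col1a1, Col1a2, Col5a1 and Col5a2 were only 5.666 to 6.481 there, so these chains also lay near the bottom of the range. Of 14 stellate cell markers 12 were in the table, and 11 of them passed the test as higher in HSC than in Other segments, as did 36.6% of all genes. The exception was Des, the transcript of the staining target, with a mean log2 level of 3.14 in HSC, 2.83 in MARCO+, 3.60 in MARCO- and 2.77 in Other segments (HSC minus Other 0.38, limma adjusted p = 0.0544). The table holds genes the authors picked from single-cell data as found mainly in stellate cells, and none of the listed endothelial, hepatocyte or cholangiocyte markers was in it.

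All 5 chains were higher in HSC than in Other segments in each of the 4 livers, as were 41.2% of all genes. Col3a1, the type III chain, differed the most. Its mean level, log2 of the Q3 value plus 1, was 6.79, 6.66, 6.55 and 6.37 in HSC segments of livers 1 to 4 and 3.84, 3.33, 3.81 and 3.43 in Other segments. The lowest HSC value lay well above the highest Other value, a difference of 2.99 ± 0.15 (SE, n = 4 livers) or 7.93-fold on that scale (limma, Benjamini-Hochberg adjusted p = 3.63e-14 over 607 genes). Folds on this scale understate changes of low values. Col1a1, the major chain of type I collagen, stood at 5.20, 5.54, 5.30 and 5.03 in HSC and at 3.00, 2.88, 3.16 and 2.77 in Other segments. Its groups did not overlap and differed by 2.32 ± 0.15, or 4.98-fold (adjusted p = 1.01e-11).

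The partner chain Col1a2 stood at 4.60, 4.87, 5.10 and 4.68 in HSC segments of livers 1 to 4 against 3.02, 2.74, 3.19 and 2.77 in Other. Again no liver overlapped, and the difference was 1.88 ± 0.17, or 3.68-fold (adjusted p = 1.06e-09). Col5a1, a type V chain, had levels of 4.26, 4.60, 4.22 and 4.10 in HSC and 2.84, 2.69, 2.92 and 2.64 in Other, 1.53 ± 0.14 apart or 2.88-fold (adjusted p = 2.85e-09). Its type V partner Col5a2 had the smallest difference, 0.66 ± 0.17 or 1.58-fold (adjusted p = 0.0019), with 0.52, 0.69, 0.86 and 0.58 in livers 1 to 4. That last difference depended on how the floor was handled. With the lowest value of each segment subtracted it was 0.88 (limma, adjusted p = 0.0557). After 1 count was subtracted from every value it was -0.01 (adjusted p = 0.989). That count is worth a median Q3 value of 3.725 in HSC but 0.069 in Other segments, so this subtraction mostly lowers HSC. The 5 calls in the higher direction stand against a background of 36.6% of genes called higher and 64.9% called in either direction. The median difference of the chains was 1.88 and that of all genes 0.04.

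**Figure D1:**
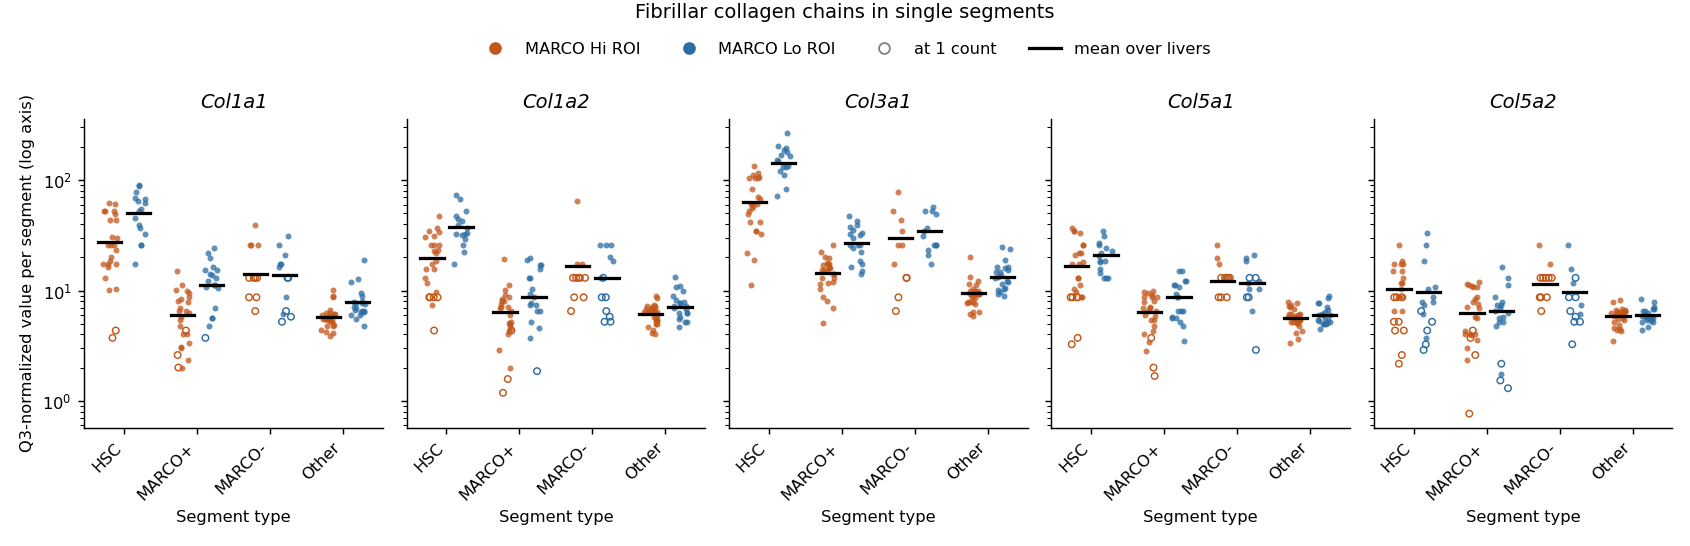
Q3-normalized value of each chain in every segment (log axis), by segment type and ROI class, with open points for segments at 1 count and a black line for the mean over livers. In both ROI classes the HSC means of Col3a1, Col1a1, Col1a2 and Col5a1 lie above those of MARCO+ and Other segments, and 14 of 41 HSC points of Col5a2 are open.

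The same order was seen inside single ROIs. Among 41 ROIs with both masks, the HSC segment was above the Other segment in 41 for Col3a1, 40 for Col1a2, 40 for Col5a1, 39 for Col1a1 and 27 for Col5a2. Among 37 ROIs with both an HSC and a MARCO+ segment, the HSC segment was higher in 37 for Col3a1, 36 for Col1a1, 35 for Col1a2, 35 for Col5a1 and 23 for Col5a2. Col5a2 thus ordered the masks less uniformly than the other chains, as a count over ROIs that share 4 livers. In 14 of 41 HSC segments Col5a2 stood at 1 count, where its value is set by the scaling of the segment.

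Against MARCO+ macrophage segments the chains were again higher in HSC, by 2.23 ± 0.15 for Col3a1, 2.05 ± 0.15 for Col1a1, 1.72 ± 0.17 for Col1a2, 1.22 ± 0.14 for Col5a1 and 0.56 ± 0.17 for Col5a2 (log2, limma adjusted p = 1.07e-11, 1.06e-10, 9.89e-09, 1.84e-07 and 0.00839). In linear terms these were 4.68-, 4.13-, 3.30-, 2.33- and 1.48-fold. All 5 chains passed, where 33.8% of genes were called higher and 52.1% in either direction. The Col5a2 call rested on few counts: its difference was 0.27 (adjusted p = 0.59) with 1 count subtracted and 0.28 (adjusted p = 0.565) with the lowest value of each segment subtracted. It was 0.50 (adjusted p = 0.0721) without liver 3. The desmin and macrophage masks adjoin in the tissue, and how much signal crosses their borders was not tested.

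MARCO+ segments and Other segments were much closer to each other. Col3a1 stood at 4.33, 4.55, 4.43 and 4.15 in MARCO+ segments of livers 1 to 4, above Other in every liver, by 0.76 ± 0.15 or 1.69-fold (limma, adjusted p = 0.000193). It was the single chain of 5 to pass, against a background of 39.7% of genes called and 19.1% called higher. With 1 count subtracted it was 0.64 (adjusted p = 0.0545). The differences of Col5a1 (0.31), Col1a1 (0.27), Col1a2 (0.16) and Col5a2 (0.10) did not pass. The count test of edgeR called 4 chains, beside 392 of all 607 genes in either direction. DESeq2 called 2 chains, beside 375 genes.

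MARCO- segments had too few counts to place the chains. The median count per segment was 4 for Col3a1, 1.5 for Col1a1 and 1 for each of Col1a2, Col5a1 and Col5a2. In the limma fit all 5 chains came out higher in MARCO- than in Other segments by 0.82 to 1.49, against a background of 73.1% of genes called and 49.9% called higher. Likewise all 5 came out lower in MARCO+ than in MARCO- segments, by 0.63 to 0.92, where 45.1% of genes were called and 35.6% called lower. Subtracting 1 count turned the first difference negative for 4 of 5 chains and the second positive for 4 of 5, and Col5a1 and Col5a2 then passed in the opposite direction in both. Only Col3a1 kept its sign in both. For the first, 1 count is worth a median Q3 value of 8.691 in MARCO- but 0.069 in Other segments, so this subtraction mostly lowers MARCO-. With the lowest value of each segment subtracted instead, the first difference was -0.28 for Col1a1, -0.30 for Col5a1 and -0.25 for Col5a2. None of these passed (limma, adjusted p = 0.64, 0.531 and 0.552), and Col1a2 stayed positive at 0.48 (adjusted p = 0.321). HSC minus MARCO- was called for 4 chains, by 1.5 for Col3a1, 1.38 for Col1a1, 0.80 for Col1a2 and 0.59 for Col5a1, beside 45.1% of genes called and 18.1% called higher. Col5a2 was at -0.16 (adjusted p = 0.458), but at 1.14 with 1 count subtracted (adjusted p = 0.0121) and at 0.42 without shallow segments (adjusted p = 0.025), so its direction is not settled.

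**Figure D2:**
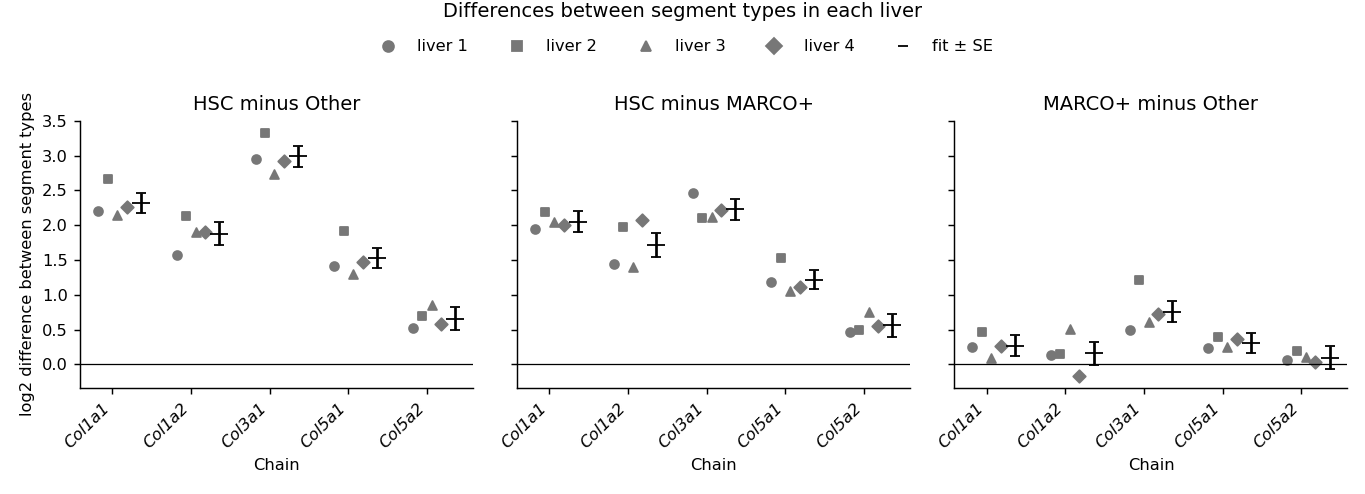
Difference between segment types for each chain on the log2 scale (HSC minus Other, HSC minus MARCO+ and MARCO+ minus Other), with 1 point per liver and a bar for the fitted mean with its standard error. In HSC minus Other the chains run from 0.66 for Col5a2 to 2.99 for Col3a1, and every liver lies above 0.

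How far HSC stood above Other followed the same order of chains in every liver, although no pair of chains passed a test. In each of the 4 livers the order was Col3a1, Col1a1, Col1a2, Col5a1 and Col5a2, so all 10 pairs were ordered the same way throughout. The Col3a1 difference exceeded that of Col1a1 by 0.67 (SD 0.06), of Col5a1 by 1.46 (SD 0.05) and of Col5a2 by 2.32 (SD 0.32), where the SD is over 4 livers. The gap between Col1a1 and Col5a1 was 0.79 (SD 0.04). With 4 livers an exact two-sided sign-flip test cannot do better than 2 of 16 sign assignments at least as large, which every pair reached. Against MARCO+ segments 8 of 10 pairs kept their order in every liver. These are differences of differences, since levels of separate chains depend on their probes and were not compared. Probe level can still enter, because differences of low values are understated on this scale. Median counts per HSC segment were 26 for Col3a1, 8 for Col1a1 and for Col1a2, 5 for Col5a1 and 2 for Col5a2. What part this has in the order of the chains was not tested.

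Within HSC segments 3 of the 5 chains were lower in MARCO Hi than in MARCO Lo ROIs. Mean Q3 values of Col3a1 in livers 1 to 4 were 76.26, 96.91, 42.92 and 50.3 in MARCO Hi and 157.53, 104.15, 198.94 and 131.61 in MARCO Lo ROIs. Every liver was lower in MARCO Hi, liver 2 only slightly, and the groups did not overlap. The difference was -1.17 ± 0.23 on the log2 scale, 2.26-fold lower (limma, adjusted p = 0.000856), with -1.04, -0.10, -2.19 and -1.37 in livers 1 to 4. Col1a2 had mean Q3 values of 12.52, 25.06, 23.87 and 19.38 in MARCO Hi against 42.66, 31.65, 46.12 and 31.04 in MARCO Lo ROIs. Again all 4 livers were lower, by 0.90 ± 0.21 or 1.86-fold (adjusted p = 0.00631). Its partner Col1a1 stood at 22.42, 49.11, 23.13 and 22.65 in MARCO Hi and 56.78, 42.15, 63.63 and 44.08 in MARCO Lo ROIs. It was lower in 3 livers and slightly higher in liver 2, with a difference of -0.86 ± 0.21 or 1.81-fold lower (adjusted p = 0.00878).

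The type V chains did not pass in HSC segments. Col5a1 had Q3 means of 15.62, 21.73, 18.17 and 12.39 in MARCO Hi and 21, 24.92, 17.24 and 21.11 in MARCO Lo ROIs, and its difference was -0.31 ± 0.21 (limma, adjusted p = 0.463). Col5a2 had 10.93, 14.05, 9.43 and 7.75 against 7.17, 6.74, 17.58 and 9.93, higher in 2 livers and lower in 2, with a difference of 0.09 ± 0.23 (adjusted p = 0.898). The 3 calls stand against a background of 4.45% of genes called and 3.79% called lower, and the median of the 5 chains was -0.86 where all genes had 0.02. Lower in every liver were 2 of the 5 chains, Col3a1 and Col1a2, beside 12.9% of all genes.

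The size of these falls varied more between livers than the fitted errors show, since the fit has 2 residual degrees of freedom and borrows most of its spread from other genes (prior 37.2). The SD of the 4 liver differences was 0.86 for Col3a1, 0.58 for Col1a2 and 0.75 for Col1a1. No chain passed without liver 2, without liver 4, after subtraction of 1 count or without the 24 shallow segments, while all 3 differences stayed below 0. HSC segments of MARCO Hi ROIs were also shallower, with a median of 3089 total counts against 4602.5, and held medians of 13 Col3a1, 6 Col1a1 and 5 Col1a2 counts against 46.5, 14.5 and 13. Stellate markers moved in the same direction. Beside 47% of all genes below 0 and 3.79% called lower in this comparison, 12 of 12 were below 0 and 2 passed (Reln -1.04, adjusted p = 0.00105, and Ecm1 -0.79, adjusted p = 0.0138). The log2 of the 12 markers' summed linear levels was 8.24 to 8.60 over livers in MARCO Hi and 8.86 to 9.08 in MARCO Lo ROIs. The most abundant markers weigh most in such a sum. For the 3 portal fibroblast markers in the table, Dpt, Eln and Gsn, the log2 of this sum was 5.15 to 6.31 and 5.34 to 6.17, and none passed. Tagln, a smooth muscle and myofibroblast gene, was higher by 0.86 (adjusted p = 0.0199). Marco, the single macrophage marker in the table and the one whose staining chose the ROIs, was higher by 1.12 in these segments, in 4 of 4 livers (adjusted p = 0.000856). What part depth or cell content has in the chains' difference was not tested.

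In MARCO+ and Other segments of the same ROIs the type I and III chains also had differences below 0. In MARCO+ segments mean Q3 values of Col3a1 were 12.75, 16.87, 14.15 and 13.67 in MARCO Hi and 28.48, 29.72, 29.57 and 20.49 in MARCO Lo ROIs. The groups did not overlap, with a difference of -0.86 ± 0.13 (limma, adjusted p = 0.0499), just under the threshold of 0.05. Col3a1 was the only gene called lower there, where 0.494% of genes were called in all and 0.165% lower, and leaving out any 1 liver ended the call. Col1a1 stood at 4.78, 6.88, 6.66 and 6.13 against 14.59, 12.16, 10.97 and 8.38, and its difference of -0.80 ± 0.17 did not pass (adjusted p = 0.149). Col5a1 (-0.39), Col1a2 (-0.42) and Col5a2 (-0.06) did not pass. Lower in every liver were 3 of the 5 chains, Col3a1, Col1a1 and Col5a1, beside 12.9% of all genes.

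In Other segments, the deepest of the 4 masks, Col3a1 had Q3 means of 10.84, 8.39, 10.43 and 8.45 in MARCO Hi and 16.38, 9.82, 16.32 and 11.32 in MARCO Lo ROIs. It was lower in every liver, by 0.43 ± 0.04 or 1.35-fold (limma, adjusted p = 0.000645), although the groups overlapped between livers. Col1a1, at 6.12, 6.02, 6.30 and 4.84 against 7.94, 6.74, 9.90 and 7.01, was also lower in every liver, by 0.38 ± 0.06 or 1.3-fold (adjusted p = 0.00631). Col1a2 missed the threshold at -0.19 ± 0.05 (adjusted p = 0.0575). Col5a1 (-0.05) and Col5a2 (-0.01) were near 0, at levels not far above the lowest gene of a segment. These 2 calls stand beside 5.11% of genes called and 3.29% called lower. Of the 12 stellate markers 11 were below 0 there, as were 53.5% of all genes. The 5 that passed as lower were Ecm1 (-0.42), Reln (-0.29), Colec11 (-0.29), Rgs5 (-0.18) and Hgf (-0.17). The log2 of the summed linear level of the 12 markers was 6.38 to 6.68 in MARCO Hi and 6.46 to 6.90 in MARCO Lo ROIs. Its part in the chains' difference was not tested. Without liver as a block neither call held, with adjusted p = 0.0597 for Col3a1 and 0.34 for Col1a1. MARCO- segments gave 0 calls among the 5 chains and 0% of all genes (58 genes and no chain at an unadjusted p under 0.05, and no chain by edgeR or DESeq2). Their differences were -0.21 for Col3a1 and 0.16 to 0.58 for the other chains, where all genes had a median of 0.31.

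**Figure D3:**
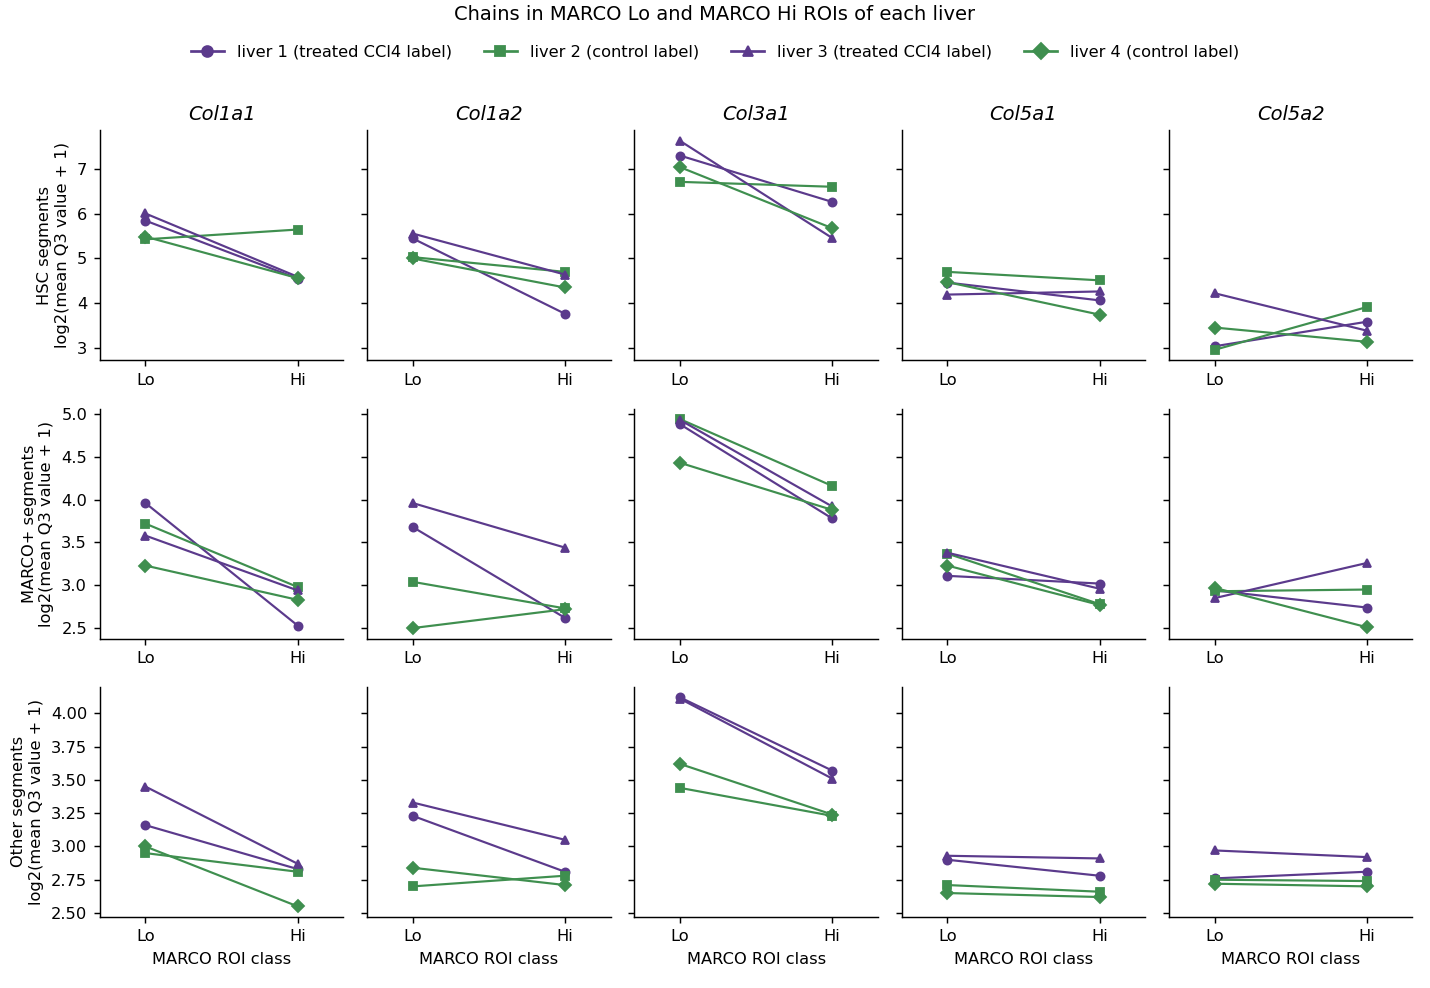
Mean level of each chain (log2 of the Q3 value plus 1) in MARCO Lo and MARCO Hi ROIs, with a line for each liver, coloured by its label, and a panel for each chain in HSC, MARCO+ and Other segments. Lines of Col3a1 fall in every liver in HSC, MARCO+ and Other segments, the HSC line of liver 2 by 0.10 only, and lines of Col5a2 run in both directions.

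Whether the ROI difference was larger in HSC than in Other segments was tested directly. It exceeded that of Other by 0.74 ± 0.23 for Col3a1 (adjusted p = 0.0879), by 0.71 ± 0.21 for Col1a2 (adjusted p = 0.0692) and by 0.48 ± 0.22 for Col1a1 (adjusted p = 0.324), all in the lower direction. No chain passed in limma, where 1.98% of genes were called, and 3 chains had an unadjusted p under 0.05, as did 12.9% of genes. With a pseudocount of 5 there were 2 calls, and the share of all genes called under that setting is not given here. In the same ROIs, the chain differences of HSC segments separated type I and III from Col5a2 in every liver: Col3a1 fell further than Col5a2 by 1.26 (SD 0.26), Col1a2 by 0.99 (SD 0.98) and Col1a1 by 0.95 (SD 0.61). Those were the 3 pairs of 10 with the same order in all 4 livers, each at the least an exact two-sided test allows, 2 of 16 sign assignments (adjusted p over 10 pairs, 0.417).

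Between livers with the 2 labels the chains could hardly be separated. In HSC segments the treated CCl4 label minus control label differences ran from -0.11 for Col5a1 to 0.19 for Col5a2, and 0 chains and 0% of genes passed in limma (37 genes and no chain at an unadjusted p under 0.05, and no chain by edgeR or DESeq2). In MARCO+ segments Col1a2 stood at 3.15 and 3.70 in the livers labelled treated CCl4 and 2.89 and 2.61 in those labelled control, a difference of 0.68 ± 0.20 (adjusted p = 0.198). It was the 1 chain without overlap in that direction, as were 17.1% of genes, and 0.659% of genes passed. In Other segments all 5 chains were higher in both livers labelled treated CCl4, led by Col3a1 (0.45 ± 0.08, adjusted p = 0.195) and Col1a2 (0.35 ± 0.09, adjusted p = 0.195). Of all genes 49.8% had the same non-overlapping order, and their median difference was 0.11 against 0.25 for the chains. None of the 5 and 0% of genes passed there (140 genes, 23.1%, and 4 chains at an unadjusted p under 0.05). By edgeR 2 chains and 176 of 607 genes were called, and by DESeq2 3 chains and 238 genes. These count fits had no liver term. The 2 ROI classes of a liver entered them as separate samples, so livers were not the replicates. MARCO- segments had differences from -0.46 to 0.32 and 0% of genes called (29 genes and no chain at an unadjusted p under 0.05, and none by edgeR or DESeq2). The ROI difference in HSC segments was lower under the treated CCl4 label by 1.00 ± 0.43 for Col1a1 (limma, unadjusted p = 0.0242, adjusted p = 0.635). It was also lower for Col1a2 (-0.33, unadjusted p = 0.00677) and Col3a1 (-0.28, 0.00849) in Other and for Col1a2 in MARCO+ segments (-0.75, 0.0495). These were the chains with an unadjusted p under 0.05, as had 38 of 607 genes in HSC, 34 in Other and 30 in MARCO+. No chain and no other gene differed between labels past the threshold in any segment type.

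The chains of types I and III varied together from segment to segment in HSC and Other segments, and less uniformly in MARCO+ segments. After each liver's mean for its ROI class was removed, Pearson's r over 41 HSC segments was 0.65 for Col1a1 with Col3a1, 0.61 for Col1a1 with Col1a2 and 0.49 for Col1a2 with Col3a1. Col5a1 followed Col3a1 at 0.33 but Col1a1 at 0.18 and Col1a2 at 0.15. Col5a2 had r from -0.22 to -0.07 with the other chains, at counts too low to read. For scale, the median r over all 183921 gene pairs in these segments was 0.02 and the 95th percentile 0.31. The segments share 4 livers, and both chains of a pair share the library and its scaling. Over the 34 deeper HSC segments the same pairs had r of 0.70, 0.71 and 0.49, in the same order. In 49 Other segments, with far more counts, r was 0.74 for Col1a1 with Col1a2, 0.68 for Col1a1 with Col3a1 and 0.58 for Col1a2 with Col3a1, and the other pairs had 0.17 to 0.52, where the 95th percentile over all pairs was 0.50. In 45 MARCO+ segments Col1a1 with Col3a1 had 0.49 and Col3a1 with Col5a1 0.40, but Col1a1 with Col1a2 had 0.27 and Col1a2 with Col3a1 0.14, below the 95th percentile of 0.30 over all pairs there. The 10 pairs in 24 MARCO- segments ran from -0.14 to 0.57, with a 95th percentile of 0.44.

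**Figure D4:**
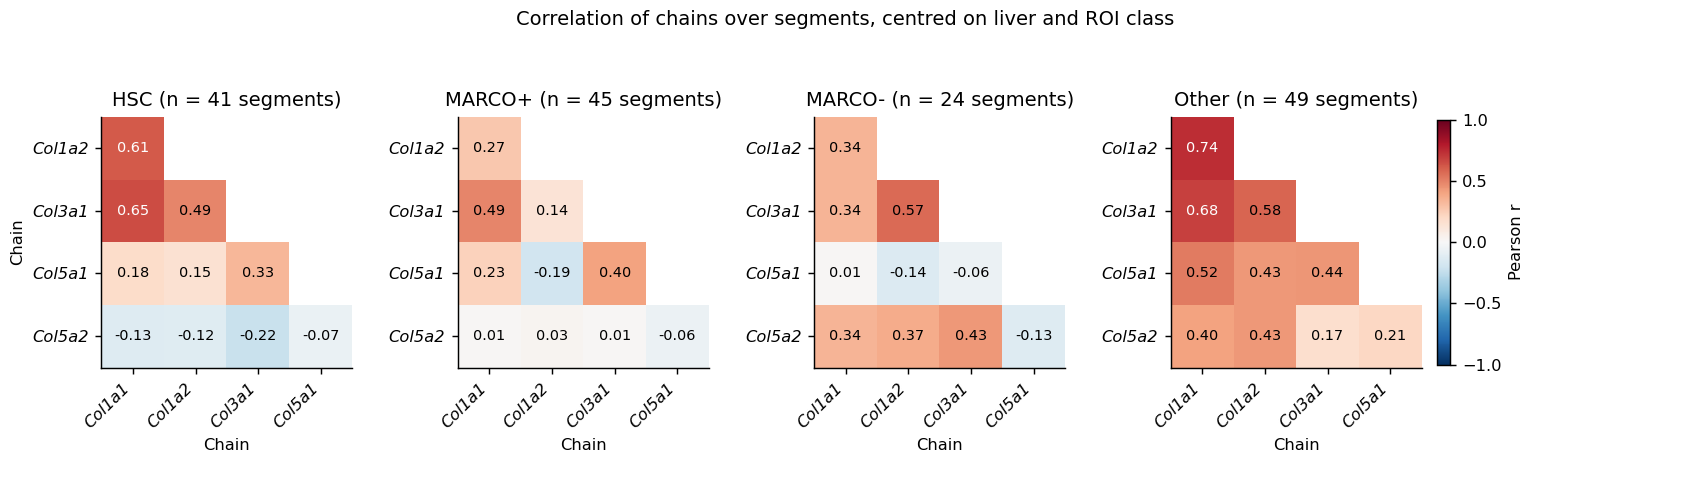
Pearson's r between chains over single segments of each type, centred on liver and ROI class. The pairs among Col1a1, Col1a2 and Col3a1 are the highest in HSC (0.49 to 0.65) and Other segments (0.58 to 0.74), and pairs with Col5a2 in HSC segments lie at or below -0.07.

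Neighbouring masks of 1 ROI did not share this variation to the same extent. Over 37 ROIs the centred Col3a1 levels of HSC and MARCO+ segments had r = 0.45, and the other 4 chains had -0.08 to 0.17. Between HSC and Other segments of 41 ROIs the 5 chains had r from -0.16 to 0.15. These values are descriptions over ROIs that come from 4 livers.

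The genes whose pattern over the 31 means per liver, ROI class and segment type was most like the mean of the 5 chains were Hand2 (r = 0.947), a transcription factor of stellate cells, Ccdc80 (0.938), a matrix protein, Abcc9 (0.936), a potassium channel subunit of mural cells, Bmp5 (0.935) and Gdf2 (0.929), both ligands of the BMP family, Lamb1 (0.924), a laminin chain, Col6a1 (0.918), Dcn (0.912), Col14a1 (0.911) and Col6a3 (0.91). The table was selected for stellate genes, which this likeness shares. Over the 41 centred HSC segments, where the mask difference is gone, the leading genes were Bgn (r = 0.727), Dcn (0.66), Ccdc80 (0.626), Ifitm1 (0.616) and Lbh (0.612). Bgn and Dcn encode biglycan and decorin, small proteoglycans that bind collagen fibrils.

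Genes that make, bind or remove the fibrils were read in the same fits. Of 39 other collagen chains 6 were in the table, and all 6 were higher in HSC than in Other segments, as were 36.6% of all genes, among them the fibril-bound Col14a1 (2.82 ± 0.16, limma adjusted p = 3.65e-13) and the microfibrillar Col6a1 (1.78 ± 0.14, adjusted p = 1.94e-10). Their median was 1.6 beside 0.04 for all genes. In HSC segments the 3 type VI chains were lower in MARCO Hi ROIs, beside 3.79% of all genes, Col6a2 by 0.94 (adjusted p = 0.00553), Col6a3 by 0.84 (0.00772) and Col6a1 by 0.75 (0.0199).

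Of 22 fibril-associated proteins 14 were in the table, with 13 higher and 1 lower in HSC than in Other segments (36.6% and 28.3% of all genes) and a median difference of 1.67. Dcn stood 3.28 ± 0.18 higher (limma, adjusted p = 3.19e-13) and Bgn 2.97 ± 0.15 (adjusted p = 3.63e-14). In HSC segments 4 of the 14 were lower in MARCO Hi ROIs, where 3.79% of all genes were called lower: Lum, encoding the proteoglycan lumican (-1.18, adjusted p = 0.000623), Dcn (-1.07, 0.000856), Tgfbi (-0.92, 0.00553) and Ecm1. In all, 13 of 14 lay below 0, as did 47.0% of all genes, with a median of -0.56 where all genes had 0.02. The ROI difference of Lum was also more negative in HSC than in Other segments (by -1.05, adjusted p = 0.00286). In Other segments Dcn was lower in MARCO Hi ROIs by 0.56 ± 0.04 (adjusted p = 0.000163).

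Of 24 intracellular folding, modification and secretion genes 5 were in the table, of which 2 were higher in HSC than in Other segments and 3 lower, too few to describe the list. Serpinh1, the collagen chaperone HSP47, was higher by 1.06 ± 0.15 (limma, adjusted p = 1.48e-06), whereas P4hb, the disulfide isomerase subunit of prolyl hydroxylase that all secretory cells use, was lower by 1.19 ± 0.14 (adjusted p = 1.67e-07). None of the 5 passed between ROI classes in HSC segments, where only 4.45% of all genes were called. The median of the 5 was 0.12 and that of all genes 0.02.

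Extracellular processing, removal and signalling genes were read against the 36.6% of all genes called higher in HSC than in Other segments. Of 14 propeptide cleavage and cross-linking genes 4 were in the table and 3 passed as higher, among them Pcolce, an enhancer of procollagen C-proteinase (1.01 ± 0.16, limma adjusted p = 7.62e-06), and Loxl2, a cross-linking oxidase (0.74 ± 0.17, adjusted p = 0.000702). Of 22 turnover genes 4 were in the table and 3 were higher, including the gelatinase Mmp2 (1.11 ± 0.16, adjusted p = 2.73e-06) and the inhibitor Timp2 (1.01 ± 0.17, adjusted p = 1.31e-05). Of 32 receptors and signals 9 were in the table and 8 were higher. Between ROI classes in HSC segments only 3.79% of all genes were called lower and 0.659% higher. No cleavage or cross-linking gene passed there. Mmp2 was lower in MARCO Hi ROIs (-0.71 ± 0.21, adjusted p = 0.0375), and Ccn2, the matricellular factor CTGF, was higher (0.78 ± 0.21, adjusted p = 0.0147). Ccn2 thus changed in the opposite direction to Col1a1, Col1a2 and Col3a1 in the same segments.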

How the data were processed

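GeoMx Mouse Whole Transcriptome Atlas libraries of FFPE liver segments were analysed. Per the labels, reads were demultiplexed with bcl2fastq 2.20.0.422. The study's methods name the GeoMx NGS Pipeline for counting and GeoMxTools for filtering and Q3 scaling, and the authors kept genes found mainly in HSCs in single-cell RNA sequencing. The table analysed here holds 607 genes, fewer than the methods state. The 75th percentile over these genes was 26.074 in every segment. The labels state 216 libraries, of which 159 segments are in the table. The deposited signal is a Q3-normalized value per gene and segment, on a linear scale. All 96513 values were whole multiples of a step per segment (relative tolerance 1e-06), and dividing by it gave counts between which no segments were identical. Whether counts of 0 were raised to 1 before deposit is not given in the sources used here, and negative probes were not analysed here.

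Linear values were averaged per liver, ROI class and segment type, and log2(mean + 1) was fitted across all 607 genes with limma 3.58.1 in R 4.3.3. Segment types were compared over 4 livers with liver as a block, averaging both ROI classes. ROI classes were compared within livers, as the mean of the differences under the 2 labels. Labels were compared over liver means. The livers are separate animals per the methods and their numbers pair all samples of 1 animal, so the block is part of the main fit. P-values were Benjamini-Hochberg adjusted over 607 genes with a threshold of 0.05. Alternatives included other pseudocounts and averages, background subtraction, re-centring, deeper segments only, each liver left out, edgeR 4.0.16 and DESeq2 1.42.0 on summed recovered counts, a random liver block and mixed models (lme4 1.1.37, lmerTest 3.1.3). Scripts were run on simulated counts without variation between livers, scaled by the known upper quartile of the unchanged means. This run therefore cannot test the spread between livers or the scaling. The chains were named by symbol, and other genes were named by list (collagens, processing, fibril-associated, turnover, signals, cell markers) or as the genes most correlated with the mean of the chains. The chains and lists were chosen with earlier results of these data known. All 607 symbols matched RefSeq, and 3 of 5 chains had a promoter entry there. Tables were handled with Python 3.11.15, pandas 2.3.3 and numpy 2.4.6, and plots drawn with matplotlib 3.10.9.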

Additional observations from a re-analysis of the deposited data

Results flagged for a closer look

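Among 60 sets of 4 liver values, 35 of them levels of a chain in a segment type and ROI class and 25 differences between segment types or ROI classes, 4 had 1 liver far from the other 3, and chance sets apart about 1 in 20. Col1a1 in HSC segments of MARCO Hi ROIs was highest in liver 2 at a log2 level of 5.65, with the nearest liver at 4.59. Col1a2 in MARCO+ segments of MARCO Hi ROIs was highest in liver 3 at 3.44, the nearest at 2.73. Col3a1 in MARCO+ segments of MARCO Lo ROIs was lowest in liver 4 at 4.43, the nearest at 4.88. Col5a2 in Other segments of MARCO Lo ROIs was highest in liver 3 at 2.97, the nearest at 2.76.

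Col1a2 had ROI differences of opposite sign in HSC and MARCO- segments. It was lower in MARCO Hi ROIs in all 4 livers in HSC segments (-0.90) and higher in all 3 livers with both classes in MARCO- segments (mean of the livers 0.51). The MARCO- value did not pass (limma fit 0.55, adjusted p = 0.63), and the median of all genes there was 0.31. The difference between the 2 was not tested, and Col1a2 stood at 1 count in 15 of 24 MARCO- segments.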

How the results depend on the processing

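Under the alternatives, 836 values of single chains kept direction and side of the threshold, 79 lost the call, 18 gained it and 45 changed sign, and 348 counts and medians stayed close to the main value where 52 moved. Depth limits what can be read, with median counts per segment of 2 to 26 for the chains in HSC and 1 to 4 in MARCO- segments. The planned background subtraction was run by subtracting the lowest value of each segment, and subtraction of 1 count and a fit of 1 difference for all livers were chosen after seeing the data. The cause of a change was not tested unless stated.

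Counts of calls among the 5 chains changed by more than 1.5 times as follows. HSC minus MARCO- had 2 in MARCO Hi ROIs alone (main 4). MARCO+ minus MARCO- had 2 with either subtraction, both in the opposite direction (Col5a1 and Col5a2), 2 in the same direction without shallow segments (Col3a1 and Col5a1) and 0 in MARCO Lo ROIs alone, with edgeR and with DESeq2 (main 5). MARCO+ minus Other had 0 with 1 count subtracted, 4 with edgeR (392 of 607 genes called) and 2 with DESeq2 (375 genes called), where the main fit had 1. MARCO- minus Other had 1 with the lowest value and 3 with 1 count subtracted, 2 of them in the opposite direction (Col5a1 and Col5a2; main 5). For MARCO Hi minus MARCO Lo, HSC segments (main 3) had 1 with medians, 0 with either subtraction, without shallow segments and in control-labelled livers, 1 with DESeq2, and 0 to 2 without 1 liver. MARCO+ segments (main 1) had 0 with pseudocount 0, means of log2 values, medians, re-centring, either subtraction, each label alone and each liver left out, and 2 with edgeR, the random block and the mixed model. Other segments (main 2) had 0 with the lowest value subtracted, with no replicate block and in control-labelled livers, and 2 to 3 without 1 liver. Between labels (main 0), MARCO+ had 1 with edgeR and the random block, and Other had 2 with edgeR, 3 with DESeq2 and 2 with the mixed model. The edgeR and DESeq2 fits of labels had no liver term, so livers were not the replicates there. Without liver 2 the MARCO+ difference of Col1a2 between labels was 0.81. HSC minus Other in the ROI difference (main 0) had 2 with pseudocount 5 and 1 with means of log2 values. Pairs of chains in 1 order in every liver, for the ROI difference, were 1 with medians and 4 to 5 without 1 liver in HSC (main 3). They were 1 with medians, 2 with the lowest value subtracted and 4 to 7 without 1 liver in MARCO+ (main 4), and 6 to 7 without 1 liver in Other (main 5). Apart from Other segments, the fit with no replicate block ended 1 call, that of Col1a1 between ROI classes in HSC segments (adjusted p = 0.0501).

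The Col5a2 call also ended in HSC minus Other re-centred (0.35, adjusted p = 0.101), with the lowest value subtracted (0.88, 0.0557) and in MARCO Lo ROIs alone (0.61, 0.0506). In HSC minus MARCO+ it ended re-centred (0.43, 0.0599), with the lowest value or 1 count subtracted (0.28, 0.565 and 0.27, 0.59), without liver 3 (0.50, 0.0721) and in MARCO Lo ROIs alone (0.49, 0.142).

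Signs turned as follows, with the lowest value and then 1 count subtracted where 2 values are given. For Col5a2, HSC minus Other was -0.01 (1 count). HSC minus MARCO- was 1.13 and 1.14 and 0.42 without shallow segments, which passed, 0.12 with edgeR, 0.18 with DESeq2 and -0.27 to 0.09 without 1 liver. MARCO+ minus MARCO- was 1.01 and 1.04 for Col1a1, 0.10 and 0.12 for Col1a2, 1.19 and 1.21 for Col5a1 and 0.85 and 0.87 for Col5a2. MARCO- minus Other was -0.28 and -1.06 for Col1a1, -0.31 (1 count) for Col1a2, -0.30 and -1.22 for Col5a1 and -0.25 and -1.15 for Col5a2. MARCO Hi minus MARCO Lo of Col5a2 in HSC segments was -0.12 and -0.14, -0.14 in treated CCl4-labelled livers, -0.09 with edgeR and -0.26 to 0.43 without 1 liver. In MARCO+ segments it was 0.03 re-centred, 0.10 in treated CCl4-labelled livers, 0.22 with edgeR, 0.16 with DESeq2, 0.02 with the random block, 0.00 with the mixed model and -0.21 to 0.10 without 1 liver. In Other segments it was 0.01 with medians, 0.00 re-centred, 0.13 with the lowest value subtracted, 0.00 without the ROI with no class in its library name, 0.04 with edgeR, 0.05 with DESeq2 and -0.03 to 0.01 without 1 liver. Col5a1 there was 0.02 with medians and 0.04 with the lowest value subtracted. MARCO- segments gave no ROI value without liver 1 or liver 3 or from deep segments alone.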
